A study of Mus musculus with 8 samples.

Results

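The 40 genes described here encode nuclear-encoded subunits of respiratory complexes II to V and the electron carrier cytochrome c. Their probes were found by gene name, with older and newer names of the ATP synthase subunits both accepted. All 40 were found among the 21319 genes tested. Of these, 4 belong to complex II, 9 to complex III, 1 is cytochrome c, 11 belong to complex IV and 15 to complex V.

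RNA came from whole small intestine of C57BL/6J Min/+ mice, which carry a truncating mutation in 1 allele of the tumour suppressor Apc and develop intestinal adenomas. Every group carries that allele, and no wild-type mice were compared. The 4 groups of 2 single-colour Agilent arrays were Western male, Control male, Western female and Control female. In the Western-type diet 66.4% of the fat was milk fat and 33.6% was rapeseed and sunflower oil, and control mice ate semisynthetic AIN-93G. Per the labels, feeding lasted 18 months and each array held RNA of 1 to 3 mice, with no age given. Whether both arrays of a group came from separate mice is not in the labels, so the p-values measure array-to-array spread, which may be technical. Whole intestine was sampled, so tumour and normal mucosa were not separated, and fewer cells of a type cannot be told apart from less RNA per cell.

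The respiratory chain, in the inner mitochondrial membrane, moves electrons from NADH and succinate to oxygen. Complex II (succinate dehydrogenase) is also an enzyme of the citric acid cycle and passes electrons to ubiquinone. Complex III hands them to cytochrome c, and complex IV (cytochrome c oxidase) hands them to oxygen. The proton gradient built by complexes I, III and IV drives complex V, the ATP synthase. Complex II is wholly encoded in the nucleus, whereas complexes III, IV and V also hold subunits encoded in mitochondrial DNA. In the intestine this machinery supplies the ATP for nutrient uptake by enterocytes.

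Promoter windows were searched for motifs that members of different complexes might share. RefSeq windows of 300 bases (build GRCm38.p6, from 250 bases before to 50 after the start of the gene) were found for 32 of the 40 genes, in 35 windows. Nuclear respiratory genes are known targets of NRF1 and of the ETS factor GABPA, whose core motifs were searched on both strands as GCATGCGC and CCGGAAG. GCATGCGC stood in 22.9% of the members' windows, against 2.7% of all 32851 windows. CCGGAAG stood in 34.3% of the members' windows, against 8.9% of all windows. At least 1 of these motifs was found for 15 of the 32 members, and 5 members held both. Of the members' windows 42.9% held at least 1, against 11% of all windows. CCAAT, the box bound by NFY, stood in 54.3% of the members' windows and 37.4% of all windows. GGGCGGGG, bound by SP1, stood in 14.3% and 17.6%, and TATAAA in 2.9% and 13.6%. AAGATGGC, bound by YY1, stood in 8.6% and 2.7%, and TGACGTCA, bound by CREB, in 5.7% and 1.8%. A longer motif known for ZNF143 stood in 17.1% and 1.8%, and a longer form of the NRF1 motif in 28.6% and 4.6%. The E-box CACGTGAC stood in none of the members' windows and 2.2% of all windows. In all, 16 strings were searched, and the rest were other forms of these and a motif of ZBTB33 (2.9% and 0.5%). A match is a description of the letters, and binding was not measured.

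The windows of 5 genes are shown. Those of Sdhb (complex II), Uqcr11 (complex III), Cox6a1 (complex IV) and Atp5k (complex V) hold both core motifs, 1 gene for each complex. They were taken from the 5 members that hold both. The window of the muscle isoform Cox7a1 holds neither. Only 15 of the 32 members with a window hold at least 1 of these motifs, so lacking both does not set Cox7a1 apart. Each is written 5′ to 3′ on the strand of its gene, and capitals mark matches to GCATGCGC or CCGGAAG on either strand; the 2 motifs did not overlap each other. They lie at chr4:140961021-140961320 (plus strand, Sdhb), chr10:80406772-80407071 (minus strand, Uqcr11), chr5:115348909-115349208 (minus strand, Cox6a1), chr5:108434350-108434649 (minus strand, Atp5k) and chr7:30183921-30184220 (plus strand, Cox7a1).
Sdhb: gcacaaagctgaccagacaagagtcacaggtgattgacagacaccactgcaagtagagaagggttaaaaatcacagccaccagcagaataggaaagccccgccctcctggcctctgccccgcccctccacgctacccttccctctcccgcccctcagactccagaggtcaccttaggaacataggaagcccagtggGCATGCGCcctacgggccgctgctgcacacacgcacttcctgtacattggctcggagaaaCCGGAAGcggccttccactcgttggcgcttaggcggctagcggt
Uqcr11: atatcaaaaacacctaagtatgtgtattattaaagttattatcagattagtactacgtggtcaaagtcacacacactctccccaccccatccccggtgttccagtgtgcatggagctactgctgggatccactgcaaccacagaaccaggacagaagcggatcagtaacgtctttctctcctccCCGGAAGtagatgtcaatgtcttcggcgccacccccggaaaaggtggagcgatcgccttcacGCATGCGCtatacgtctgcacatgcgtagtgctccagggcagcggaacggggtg
Cox6a1: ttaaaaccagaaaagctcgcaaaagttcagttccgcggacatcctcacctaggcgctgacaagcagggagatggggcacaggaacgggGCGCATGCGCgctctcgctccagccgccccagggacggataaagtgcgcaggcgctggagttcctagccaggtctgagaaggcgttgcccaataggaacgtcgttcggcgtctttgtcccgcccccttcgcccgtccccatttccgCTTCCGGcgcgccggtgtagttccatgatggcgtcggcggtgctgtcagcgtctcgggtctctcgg
Atp5k: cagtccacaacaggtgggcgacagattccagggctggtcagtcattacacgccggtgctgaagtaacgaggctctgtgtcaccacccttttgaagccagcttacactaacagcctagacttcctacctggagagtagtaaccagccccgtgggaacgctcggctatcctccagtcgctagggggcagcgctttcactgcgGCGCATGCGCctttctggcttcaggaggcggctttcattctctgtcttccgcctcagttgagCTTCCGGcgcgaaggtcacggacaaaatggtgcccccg
Cox7a1: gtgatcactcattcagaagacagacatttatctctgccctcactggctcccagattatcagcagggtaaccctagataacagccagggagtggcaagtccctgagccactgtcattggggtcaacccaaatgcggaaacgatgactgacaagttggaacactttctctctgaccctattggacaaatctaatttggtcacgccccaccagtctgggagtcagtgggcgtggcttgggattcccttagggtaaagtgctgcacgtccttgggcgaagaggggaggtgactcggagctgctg
Counted from the start of the gene, the first match begins at base -54 in Sdhb, -66 in Uqcr11, -162 in Cox6a1 and -50 in Atp5k. In Cox6a1 and Atp5k GCATGCGC matches both strands at places that overlap, so that 10 capitals stand together.

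Levels are given as log2 signal relative to the 75th percentile of each array, and are compared between arrays for the same probe only. The 75th percentile lay between 488.2 and 907.1 signal units. On 7 arrays 55.1% to 61.9% of probes were above background, against 75.7% on Control female 2, which also stood apart on the first principal component (score -146.6, against -2.2 to 33.6 on the others). The array labelled Control female 1 went against its label. Its summed level of 3 Y-linked transcripts was 4.60 times the 75th percentile, against 3.92 to 6.24 on the male arrays and 0.0177 to 0.0458 on the other 3 female arrays. The name of its deposited file was of the kind given to the Western arrays. It was kept under its label, and the medians of each comparison and the named differences in females and between the sexes are also given without it. All 16 enterocyte markers measured were above background on all 8 arrays. The replicate 1 arrays of all groups shared slide 1, Western male 2 was on slide 2, and the other 3 arrays were on slide 3.

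Transcripts of complexes II to V moved together from array to array. Counts of members above or below 0 are therefore not counts of independent observations. Each gene was centred on its own mean over the 8 arrays. The median deviation of the 40 genes was -0.12 and 0.16 on the 2 Western male arrays and -0.22 and -0.12 on the 2 Control male arrays. It was 0.20 and -0.25 on the 2 Western female arrays and 0.20 and 0.14 on the arrays labelled Control female. On Western male 2, Western female 1 and the array labelled Control female 1, 95%, 92.5% and 95% of the members lay above their own mean, against 46.7%, 47.3% and 52.5% of all genes. On Control male 1 and Western female 2 only 5% did, against 47.8% and 42.9% of all genes. Control female 2 had 87.5% of the members above their mean, and there 63.6% of all genes lay above theirs too.

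**Figure D1:**
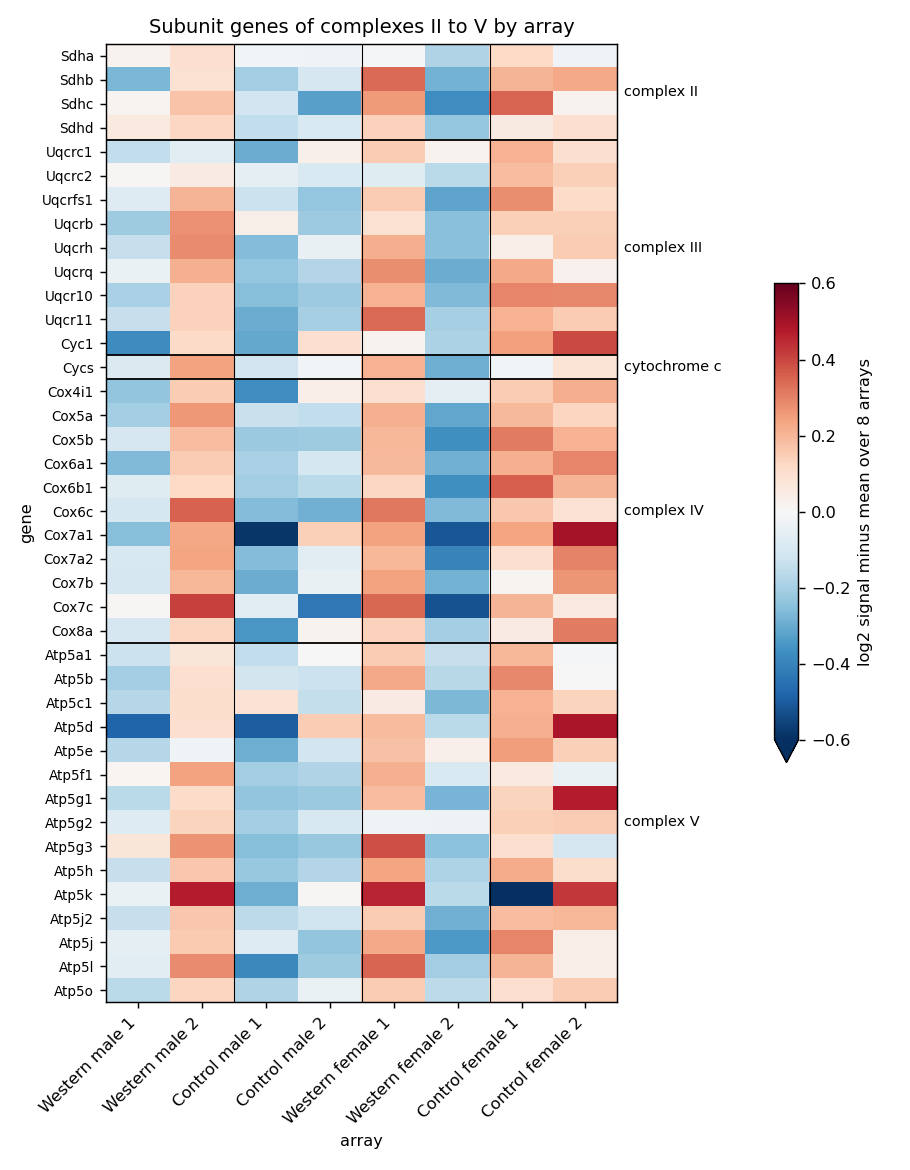
Heat map of the 40 genes (vertical axis, by complex) on the 8 arrays (horizontal axis); colour is the deviation of a gene from its own mean over the arrays, in log2. Most genes are low on Control male 1 and Western female 2 and high on Western male 2, Western female 1 and the array labelled Control female 1; Atp5k on Control female 1 (-0.87) lies beyond the colour scale.

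The 2 arrays of each Western group differed by more than the diets did. All 40 genes were lower on Western male 1 than on Western male 2, with a median gap of -0.30. All 40 were higher on Western female 1 than on Western female 2, with a median gap of 0.47. In the Control males 11 genes were higher on array 1 and 29 on array 2, and in the arrays labelled Control female 22 and 18 were, with median gaps of -0.06 and 0.05. The SD of the array medians within groups was 0.19. Over all 8 arrays the SD of single genes had a median of 0.22, against 0.28 for the 16932 genes above background on every array. The steadiest member was Sdha, the flavoprotein that oxidises succinate (SD 0.09), and the most variable was Atp5k, subunit e of the ATP synthase membrane part (SD 0.46).

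The complexes were low and high on largely the same arrays. On Western female 2 the median deviation was -0.26 in complex II, -0.25 in complex III, -0.31 in complex IV and -0.17 in complex V. On Western male 2 it was 0.11 in complex II, 0.14 in complex III, 0.20 in complex IV and 0.14 in complex V. All 4 complexes had the same sign on these arrays. The lowest array was Western female 2 for complexes II and IV and Control male 1 for complexes III and V. Complex II was at 0.02 on Western male 1, where complexes III, IV and V were at -0.14, -0.10 and -0.14. Cytochrome c was at -0.02 on the array labelled Control female 1, where the complexes were at 0.16 to 0.21.

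**Figure D2:**
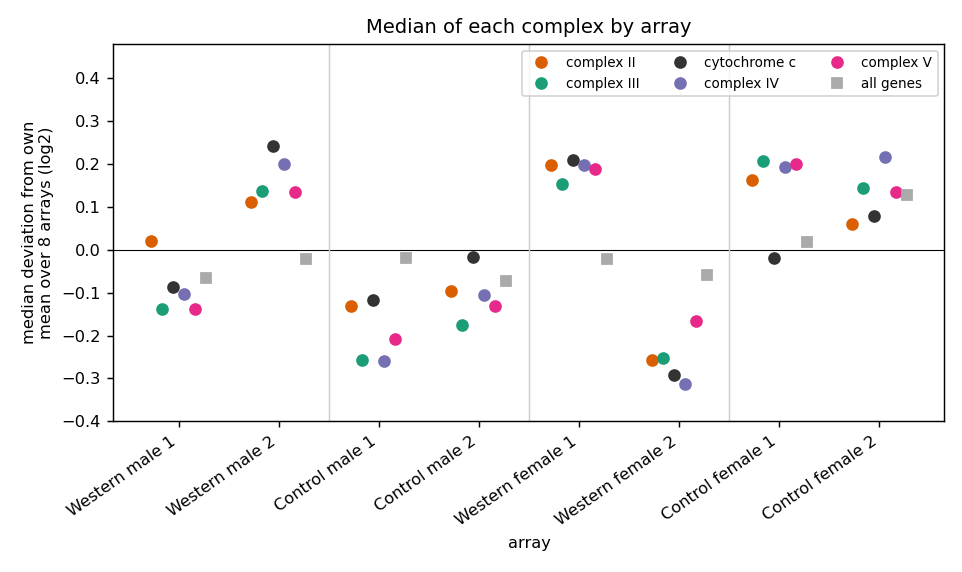
Median deviation from the 8-array mean (vertical axis, log2) of each complex and of cytochrome c on each array (horizontal axis). Complexes II to V share their sign on all arrays but Western male 1, where complex II is at 0.02, and cytochrome c departs from them on Control female 1 (-0.02); the 2 arrays of the Western female group lie on opposite sides of 0.

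Averaged over the sexes, no subunit differed between the Western and the control diet beyond the spread between arrays. With limma, 0 of 40 members had an adjusted p under 0.05 (0% of all genes), and 0 had an unadjusted p under 0.05 (4.35% of all genes). The median difference, Western minus control, was -0.02, against -0.06 over all genes. It was above 0 for 16 members (39.8% of all genes) and below 0 for 24 (60.2% of all genes). With the array median in place of the 75th percentile all 40 lay above 0, with a median of 0.39, where the median of all genes lay at 0.34. Relative to the median of all genes the members' median was 0.04 with both scalings and -0.07 with quantile normalization. No member had diet groups that did not overlap, in either direction (0.826% of all genes higher and 2.35% lower). Single differences ran from -0.22 (Cyc1) to 0.36 (Atp5k), and the smallest adjusted p was 0.994. Without the array labelled Control female 1 the median was 0.001, with 20 members above 0, and without Control female 2 it was -0.03, with 17 above 0. Without Western female 1 it was -0.10 and without Western female 2 it was 0.09.

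**Figure D3:**
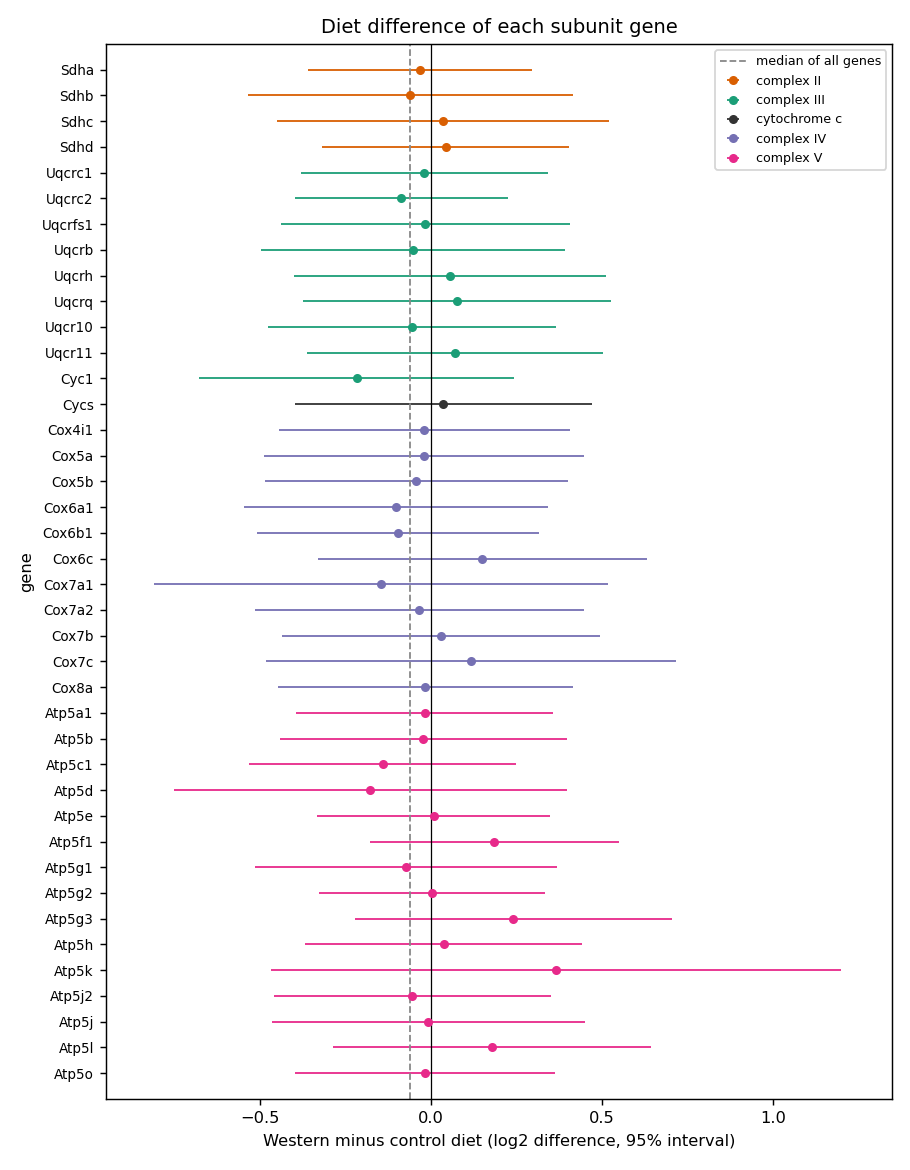
Difference between Western and control diet for each gene (horizontal axis, log2, with 95% intervals from limma, 4 arrays per diet; genes on the vertical axis, coloured by complex). The dashed line is the median of all genes (-0.06). All 40 intervals include 0, and Atp5k has the widest.

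In complex II the diet differences of the 4 genes lay between -0.06 and 0.04. Sdhd, a membrane anchor, measured 5.51 and 5.57 in Western males, 5.30 and 5.36 in Control males, 5.58 and 5.21 in Western females, and 5.50 and 5.55 in the arrays labelled Control female. Both Western male arrays lay above both Control male arrays, while Western female 2 was the lowest of all. Its diet difference was 0.04 ± 0.15 (SE, adjusted p = 0.999). Sdhb, the iron-sulfur subunit, measured 6.75 and 7.11 in Western males, 6.81 and 6.92 in Control males, 7.36 and 6.74 in Western females, and 7.22 and 7.25 in the arrays labelled Control female. The diet groups overlapped, with the highest and the lowest array both among the Western females. The difference was -0.06 ± 0.20 (SE, adjusted p = 0.999). Sdha, which holds the flavin, and Sdhc, the other membrane anchor, differed by -0.03 and 0.03.

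In complex III, 3 of 9 genes were higher and 6 lower on the Western diet, with a median of -0.02. Cyc1, the cytochrome c1 that hands electrons to cytochrome c, had the most negative difference. It measured 4.999 and 5.49 in Western males, 5.07 and 5.48 in Control males, 5.39 and 5.18 in Western females, and 5.62 and 5.77 in the arrays labelled Control female. The male groups overlapped, and both Western female arrays lay below both arrays labelled Control female. It averaged 5.27 ± 0.22 on the Western diet and 5.48 ± 0.30 on the control diet (SD, n = 4 arrays each), a difference of -0.22 ± 0.19 (SE, limma adjusted p = 0.994, 95% interval -0.68 to 0.24). Uqcrq, a small supernumerary subunit, measured 7.03 and 7.28 in Western males, 6.83 and 6.89 in Control males, 7.34 and 6.76 in Western females, and 7.29 and 7.09 in the arrays labelled Control female. The male groups did not overlap and the female groups did, for a diet difference of 0.08 ± 0.18 (SE, adjusted p = 0.999). The core proteins Uqcrc1 and Uqcrc2 differed by -0.02 and -0.09, and the Rieske iron-sulfur protein Uqcrfs1 by -0.02. The small subunits Uqcrb, Uqcrh, Uqcr10 and Uqcr11 lay between -0.06 and 0.07.

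Cytochrome c itself, encoded in somatic tissue by Cycs, measured 6.54 and 6.87 in Western males, 6.51 and 6.61 in Control males, 6.83 and 6.33 in Western females, and 6.61 and 6.70 in the arrays labelled Control female. Its highest and lowest arrays were both on the Western diet. The diet difference was 0.04 ± 0.18 (SE, adjusted p = 0.999), and the 2 other probes of the gene gave 0.14 and 0.15.

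In complex IV, 3 of 11 genes were higher and 8 lower on the Western diet, with a median of -0.02. Cox6c, a nuclear subunit of the enzyme, measured 6.78 and 7.24 in Western males, 6.63 and 6.60 in Control males, 7.20 and 6.62 in Western females, and 7.05 and 6.97 in the arrays labelled Control female. The Western males lay above the Control males, and the Western females lay on both sides of the arrays labelled Control female. The diet difference was 0.15 ± 0.20 (SE, adjusted p = 0.997). Cox6b1, which faces the intermembrane space, measured 1.91 and 2.10 in Western males, 1.77 and 1.82 in Control males, 2.11 and 1.61 in Western females, and 2.34 and 2.18 in the arrays labelled Control female. Its sexes went opposite ways without overlap, and the averaged difference was -0.10 ± 0.17 (SE, adjusted p = 0.999). The 2 forms of subunit 7a differ in where they are made, Cox7a1 mainly in heart and muscle and Cox7a2 widely. Cox7a1 measured 5.91 and 6.39 in Western males, 5.58 and 6.30 in Control males, 6.41 and 5.65 in Western females, and 6.40 and 6.67 in the arrays labelled Control female. Cox7a2 measured 4.87 and 5.21 in Western males, 4.71 and 4.91 in Control males, 5.17 and 4.57 in Western females, and 5.07 and 5.27 in the arrays labelled Control female. Both isoforms were lowest on Control male 1 and Western female 2, and their diet differences were -0.15 ± 0.27 and -0.03 ± 0.20 (SE). The other members, Cox4i1, Cox5a, Cox5b, Cox6a1, Cox7b, Cox7c and Cox8a, which surround the catalytic core, lay between -0.10 and 0.12.

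In complex V, 7 of 15 genes were higher and 8 lower on the Western diet, with a median of -0.01. Atp5g1, Atp5g2 and Atp5g3 encode the same mature c subunit, the ring that turns with proton flow, behind different targeting peptides. Atp5g3 measured 7.93 and 8.13 in Western males, 7.61 and 7.63 in Control males, 8.25 and 7.61 in Western females, and 7.96 and 7.76 in the arrays labelled Control female. It averaged 7.98 ± 0.28 on the Western diet and 7.74 ± 0.16 on the control diet (SD, n = 4 arrays each), a difference of 0.24 ± 0.19 (SE, limma adjusted p = 0.994, 95% interval -0.22 to 0.70). Atp5g1 measured 6.20 and 6.47 in Western males, 6.12 and 6.14 in Control males, 6.54 and 6.08 in Western females, and 6.49 and 6.83 in the arrays labelled Control female. Atp5g2 measured 6.10 and 6.32 in Western males, 5.97 and 6.08 in Control males, 6.16 and 6.15 in Western females, and 6.32 and 6.33 in the arrays labelled Control female. All 3 genes were higher in Western than in Control males without overlap, and in the averaged comparison Atp5g1 and Atp5g2 differed by -0.07 ± 0.18 and 0.002 ± 0.14 (SE).

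Among the catalytic and stalk subunits, Atp5c1, the rotating gamma subunit, measured 6.98 and 7.26 in Western males, 7.24 and 7.01 in Control males, 7.20 and 6.88 in Western females, and 7.36 and 7.29 in the arrays labelled Control female. The diet groups overlapped, and its 2 probes disagreed in sign, with differences of -0.14 and 0.17. The catalytic beta subunit Atp5b differed by -0.02 and the alpha subunit Atp5a1 by -0.02. Atp5d (delta) and Atp5e (epsilon) of the central stalk differed by -0.18 and 0.01. Of the peripheral stalk, Atp5f1 (subunit b) differed by 0.19, Atp5h (d) by 0.04, Atp5j (F6) by -0.01 and Atp5o, which joins the stalk to the catalytic head, by -0.02. Of the small membrane subunits, Atp5l (g) differed by 0.18, Atp5j2 (f) by -0.06 and Atp5k (e) by 0.36. The difference of Atp5k rested on the array labelled Control female 1, where its probe lay 0.87 below the gene's mean and its second probe lay 0.31 above. The second probe gave a diet difference of 0.02. All 5 probes of Atp5l gave positive differences, from 0.12 to 0.39. Of the 16 members with several probes, 11 had probes that shared the sign of the diet difference.

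Within males the subunits leaned higher on the Western diet, and no member passed the test. The median difference, Western male minus Control male, was 0.21, against -0.02 over all genes, and 37 of 40 members lay above 0 (47.8% of all genes) and 3 below (52.2% of all genes). With median scaling the members' median less that of all genes stayed at 0.22, and with quantile normalization it was 0.12. With limma, 0 of 40 had an adjusted p under 0.05 (0% of all genes) and 0 an unadjusted p under 0.05 (1.3% of all genes), and the smallest adjusted p was 1. In 19 of 40 both Western male arrays lay above both Control male arrays, which held for 11.6% of all genes, and in none did both lie below (13.3% of all genes). Of the 16 members with several probes, 14 had probes that shared the sign of the difference in males, and 11 in females. The second probe of Sdhc gave -0.006 in males, with overlap. The 19, counted on 1 probe per gene, were 3 of complex II, 5 of complex III, 4 of complex IV and 7 of complex V. The difference depended on Western male 2, the array alone on its slide. Without it the median was 0.06 and without Western male 1 it was 0.33. On slide 1 alone, 1 array per group, it was 0.10, and with slide as a block it was 0.002, with 20 members above 0.

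Atp5g3, Atp5l and Atp5f1 had the smallest p among the members in males. Atp5g3, given above, differed by 0.41 ± 0.27 (SE, limma adjusted p = 1). Atp5l, subunit g of the membrane part, measured 6.54 and 6.89 in Western males and 6.22 and 6.39 in Control males, without overlap. It measured 6.95 and 6.40 in Western females and 6.81 and 6.64 in the arrays labelled Control female, where the diets overlapped. Atp5f1, subunit b of the peripheral stalk, measured 4.75 and 4.98 in Western males and 4.53 and 4.56 in Control males. Its female values overlapped, at 4.95 and 4.64 in Western females and 4.80 and 4.70 in the arrays labelled Control female. The differences in males were 0.41 ± 0.27 for Atp5l and 0.32 ± 0.21 for Atp5f1 (SE, limma adjusted p = 1 for both).

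Within females the subunits leaned lower on the Western diet, and again no member passed the test. The median difference, Western female minus Control female, was -0.18, against -0.11 over all genes. Of 40 members 37 lay below 0 (63.5% of all genes), whereas with median scaling all 40 lay above 0, with a median of 0.48, where the median of all genes lay at 0.54. Relative to the median of all genes the members' median was -0.07 with both scalings and -0.20 with quantile normalization. With limma, 0 of 40 had an adjusted p under 0.05 (0% of all genes) and 0 an unadjusted p under 0.05 (5.14% of all genes), and the smallest adjusted p was 0.949. In 12 of 40 both Western female arrays lay below both arrays labelled Control female (21.9% of all genes), and none lay above (9.42% of all genes). Without the array labelled Control female 1 these were 18 of 40 (47.6% of all genes) and none (22.9% of all genes). The difference turned on Western female 2. Without it the median was 0.01, with 20 members above 0, against -0.08 over all genes. Without Western female 1 it was -0.39, against -0.16 over all genes. On slide 1 alone, 1 array per group, the median was -0.005, with 20 members above 0, against -0.04 over all genes. On slide 3 alone, Western female 2 minus Control female 2, it was -0.40, against -0.22 over all genes. Without the array labelled Control female 1 the median was -0.18, with 5 members above 0, and without Control female 2 it was -0.20, with 2 above 0. The array that is then alone in its group is assumed to vary like the others.

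Cox6b1, Uqcrc2 and Cyc1 had the smallest p among the members in females. Cox6b1 differed by -0.40 ± 0.24 (SE, limma adjusted p = 0.949). Uqcrc2, a core protein of complex III, measured 5.42 and 5.33 in Western females and 5.67 and 5.63 in the arrays labelled Control female, and 5.50 and 5.54 in Western males and 5.43 and 5.40 in Control males. The 2 diets did not overlap in either sex and went opposite ways. Its difference in females was -0.28 ± 0.18, and that of Cyc1 was -0.41 ± 0.27 (SE, limma adjusted p = 0.949 for both). The differences were -0.32 for Cox6b1, -0.26 for Uqcrc2 and -0.48 for Cyc1 without the array labelled Control female 1.

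The diet difference, taken with its sign, was lower in females than in males for 39 of 40 members, against 64.6% of all genes. The same held for 35 of the 36 nuclear subunits of complex I. Over the members, the difference of the diet effects, females minus males, had a median of -0.37, against -0.13 over all genes. With median scaling these were 0.13 and 0.37, with 31 members above 0. Relative to the median of all genes the members' median was -0.24 with both scalings and -0.30 with quantile normalization. With limma, 0 of 40 had an adjusted p under 0.05 (0% of all genes) and 0 an unadjusted p under 0.05 (1.62% of all genes), and the smallest adjusted p was 1. The median was -0.57 without Western female 1 and -0.15 without Western female 2. It was -0.36 without the array labelled Control female 1 and -0.35 without Control female 2. On slide 1 alone it was -0.07, with 13 members above 0. With slide as a block it was -0.15.

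In 5 of 40 genes both Western male arrays lay above both Control male arrays while both Western female arrays lay below both arrays labelled Control female, which held for 1.07% of all genes. These were Uqcrc2 and Uqcr10 of complex III, Cox5b and Cox6b1 of complex IV and Atp5g2 of complex V. Uqcr10 has 3 probes, and 1 that did not represent the gene overlapped in females. Relative to that probe's own mean, Western female 1 lay at 0.26 and the array labelled Control female 1 at 0.25. Without the array labelled Control female 1 these 5 genes were joined by Atp5g1, which made 6 of 40 against 3.14% of all genes. Cox6b1, Cox5b and Atp5g1 had the smallest p for this comparison, with differences of -0.61 ± 0.34, -0.60 ± 0.36 and -0.56 ± 0.36 (SE, limma adjusted p = 1 for each). They were -0.53, -0.55 and -0.72 without the array labelled Control female 1. Cox5b, the zinc-binding subunit, measured 5.33 and 5.62 in Western males and 5.21 and 5.22 in Control males. It measured 5.63 and 5.07 in Western females and 5.75 and 5.64 in the arrays labelled Control female. The gap between its 2 Western female arrays was wider than its diet difference in either sex. Atp5k was the 1 member above 0, at 0.02, and its second probe gave diet differences of 0.30 in males and -0.26 in females, against 0.36 and 0.37 for the first.

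**Figure D4:**
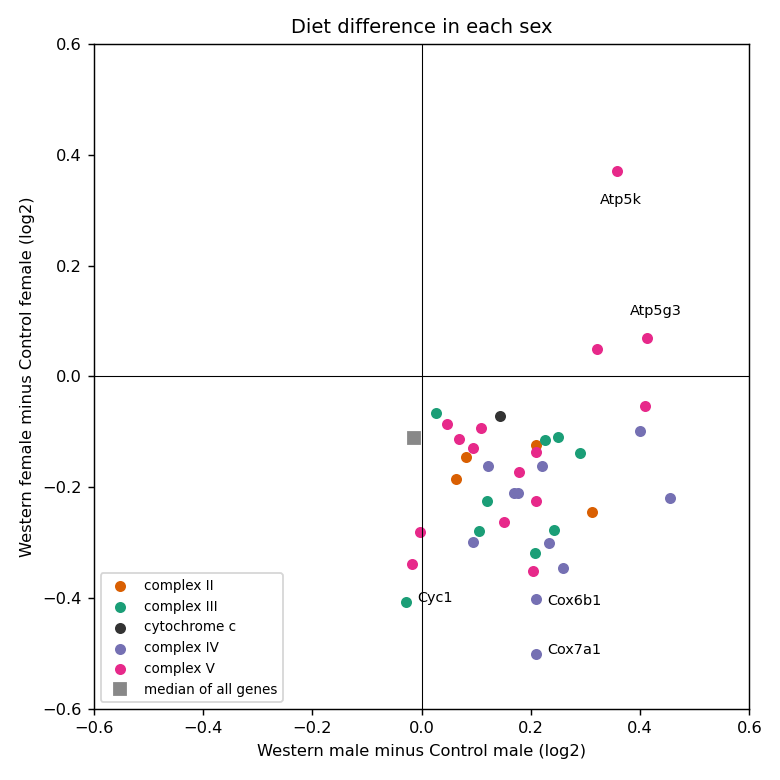
Diet difference in males (horizontal axis, log2) against that in females (vertical axis, log2), 1 point per gene, coloured by complex, with the median of all genes as a grey square. Most points lie right of 0 and below 0; with the array median as the scale the vertical values are all above 0.

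Females measured higher than males in 37 of 40 members, against 62.5% of all genes, and no member passed the test. The median difference, female minus male, was 0.13, against 0.08 over all genes, while with median scaling it was -0.14, with 2 members above 0, as the median of all genes then lay at -0.19. Relative to the median of all genes the members' median was 0.05 with both scalings and 0.11 with quantile normalization. With limma, 0 of 40 had an adjusted p under 0.05 (0% of all genes) and 0 an unadjusted p under 0.05 (3.86% of all genes), and the smallest adjusted p was 0.903. Without the array labelled Control female 1, the 1 that carried Y-linked transcripts, the median was 0.13, with 39 members above 0. Without Control female 2 it was 0.16, with 37 above 0. Without Western female 1 it was 0.03, and without Western female 2 it was 0.25. On slide 1 alone it was 0.34, against 0.05 over all genes, and the array labelled Control female 1 was 1 of 2 female arrays there. On slide 3 the value was Control female 2 minus Control male 2, 1 array each, on the control diet only. It was 0.28, against 0.18 over all genes, with 39 members above 0 on each slide. Western female 2, also on slide 3, was not part of it. There the members' median deviation was -0.25, against -0.12 on Control male 2.

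Atp5e, the epsilon subunit of the central stalk, was the 1 member whose sexes did not overlap (2.01% of all genes were higher in that way, and 1.02% lower). It measured 6.87, 6.72, 6.94 and 6.83 on the 2 Western female arrays and the 2 labelled Control female, against 6.52, 6.67, 6.40 and 6.58 on the 2 Western male and 2 Control male arrays. The means were 6.84 ± 0.09 in females and 6.54 ± 0.12 in males (SD, n = 4 arrays each), a difference of 0.30 ± 0.14 (SE, limma adjusted p = 0.903). The highest of these values, 6.94, was that of the array labelled Control female 1 with its Y-linked transcripts, and were that array male the sexes would overlap. Without it the sexes did not overlap for Atp5e alone of the 40 (3.65% of all genes were higher in that way), and the difference was 0.27 ± 0.17 (SE, limma adjusted p = 0.609). Uqcrc1, a core protein of complex III, measured 5.30, 5.17, 5.35 and 5.24 on the female arrays in the same order, against 4.997, 5.08, 4.85 and 5.18 on the male arrays. Only Control male 2 reached into the female range, and the difference was 0.24 ± 0.15 (SE, limma adjusted p = 0.903). Atp5d, the delta subunit, measured 5.16, 4.80, 5.18 and 5.46 on the female arrays, against 4.49, 5.07, 4.47 and 5.12 on the male arrays. The replicate 1 males were low and the replicate 2 males were within the female range, so that the difference was 0.36 ± 0.23 (SE, limma adjusted p = 0.903). Without the array labelled Control female 1 the differences were 0.21 ± 0.18 for Uqcrc1 and 0.43 ± 0.28 for Atp5d (SE, limma adjusted p = 0.721 and 0.613).

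Complex I followed the same arrays, and the other lists of the pathway did so in part. All 36 nuclear subunits of complex I on the list were measured, and their median deviations were -0.15, 0.17, -0.20, -0.19, 0.20, -0.16, 0.22 and 0.21 on Western male 1 and 2, Control male 1 and 2, Western female 1 and 2 and the arrays labelled Control female 1 and 2. In males the diet difference was above 0 for all 36, and in females it was below 0 for 35. None of the 36 had an unadjusted p under 0.05 for diet. Ndufa11 and Ndufa10, accessory subunits, had the smallest, with diet differences of -0.24 ± 0.21 and -0.15 ± 0.14 (SE, limma adjusted p = 0.994 for both). Of 34 assembly factors of complexes II to V, 31 were measured and none had an unadjusted p under 0.05 for diet. Their median deviation was lowest on Western male 1 (-0.20) and Control male 2 (-0.15), while on Control male 1 and Western female 2, where the subunits were lowest, it was -0.06 and -0.02. Cox10, which makes the haem A precursor, differed by -0.85 ± 0.54 (SE, limma adjusted p = 0.994) and rested on Control female 2, where it lay at -0.93, against -4.12 to -3.23 on the other arrays. Cox16, an assembly factor of complex IV, differed by 0.18 ± 0.13 (SE). Of 12 other isoforms and accessory proteins 9 were measured, with a median diet difference of 0.05, and none had an unadjusted p under 0.05. Cox6b2, the testis form of Cox6b, differed by -0.37 ± 0.25 and Atpif1, the inhibitor of the ATP synthase, by 0.10 ± 0.17 (SE). The 13 subunits encoded in mitochondrial DNA matched no probe and were not analysed here.

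All 12 regulators of nuclear respiratory genes on the list were measured, and none had an unadjusted p under 0.05 for diet. Their median deviation was 0.09 on Control male 1 and -0.08 on Western female 2. Ppargc1a, a coactivator that drives mitochondrial biogenesis, measured 1.60 and 0.13 in Western males, 2.15 and 1.06 in Control males, 0.46 and 0.17 in Western females, and 1.27 and 1.60 in the arrays labelled Control female. Western male 1 was the 1 Western array within the control range. The difference was -0.93 ± 0.40 (SE, limma adjusted p = 0.994). Yy1, a zinc finger factor, differed by 0.24 ± 0.14 (SE, limma adjusted p = 0.994).

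Smooth muscle markers were highest on Control male 1 and fat cell markers on Western female 2, the 2 arrays where the subunits were lowest, and markers of other cells did not all follow. The 13 smooth muscle markers lay at a median of 3.61 above their means on Control male 1, against -1.63 to 0.21 on the others. Their summed level was 12.4 and 12.8 times the 75th percentile in Western males, 74.9 and 7.90 in Control males, 23.1 and 14.4 in Western females and 20.5 and 13.9 in the arrays labelled Control female. All 13 were above background on Control male 1, while Myh11, the smooth muscle myosin, was above background on only 3 arrays. The 8 fat cell markers lay at a median of 4.38 above their means on Western female 2, with 6 of 8 above, against -1.52 to 0.80 on the others. Their summed level was 8.94 and 8.53 in Western males, 7.59 and 10.9 in Control males, 17.7 and 39.4 in Western females and 7.84 and 11.7 in the arrays labelled Control female. Adipoq, the fat cell hormone adiponectin, was above background on 3 arrays. The 16 enterocyte markers had their lowest median on Western female 2 (-0.35), followed by Western male 1 (-0.18) and Control male 1 (-0.13), against 0.06 to 0.24 on the other 5. On Control male 2, where the subunits were also low (-0.12), smooth muscle markers lay at -1.22 and fat cell markers at -0.84. The 6 red blood cell markers had their median at 1.80 on Western male 1 and at -1.93 and -1.67 on the arrays labelled Control female 1 and 2. On Control female 2, where the subunits were high (0.14), the median was 1.43 for 6 striated muscle markers. There it was 0.66 for 7 markers of neurons and glia and 0.71 for 3 pancreatic acinar markers. On Control male 1 these lists lay at 0.28, 0.87 and -0.26, and 8 fibroblast markers had their highest median (2.205). The summed level of the 16 enterocyte markers was 2140 and 2710 in Western males and 2290 and 2670 in Control males. It was 3300 and 2050 in Western females and 2720 and 3060 in the arrays labelled Control female. The part of these in the subunits' values was not tested. Without Control male 1 and Western female 2 together, a choice made after seeing the data, the members' median difference was 0.01 in females and -0.11 for females minus males.

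**Figure D5:**
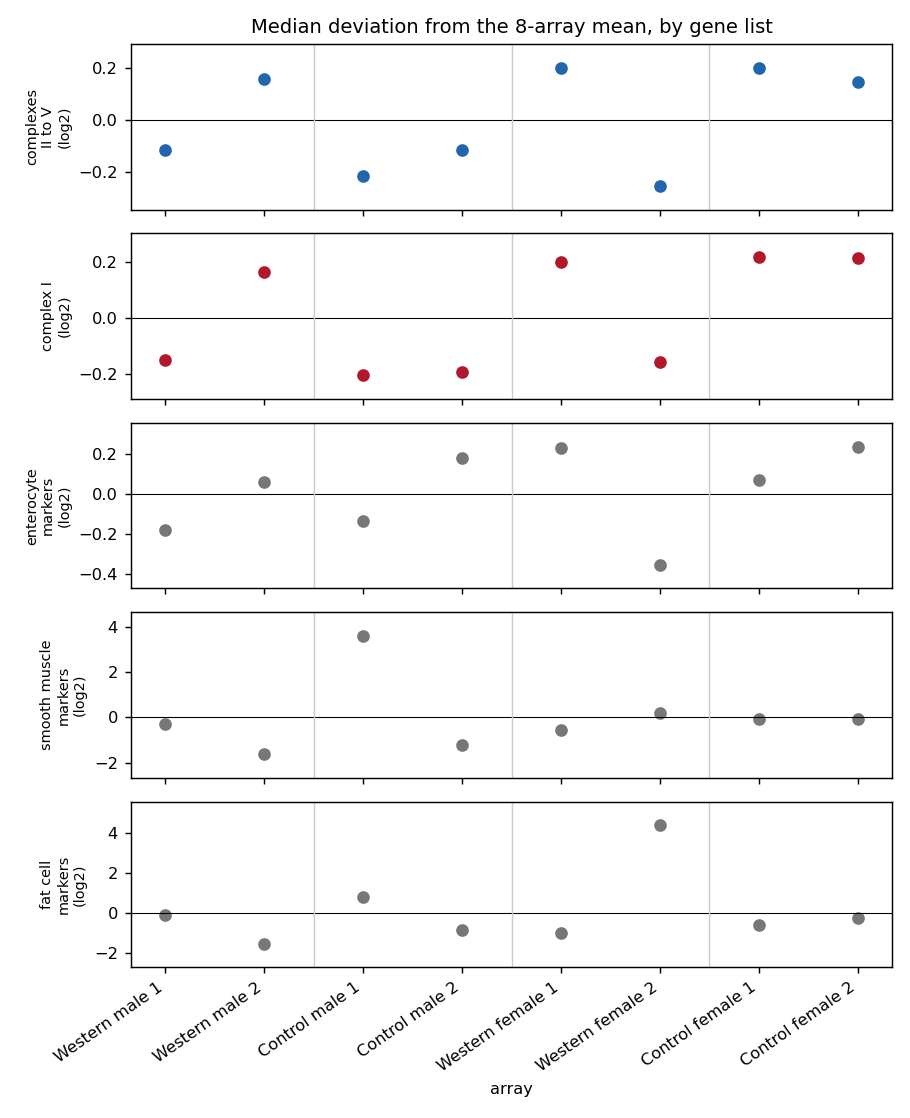
Median deviation from the 8-array mean (vertical axes, log2, 1 panel per list) on each array (horizontal axis) for the subunits of complexes II to V, complex I, enterocyte, smooth muscle and fat cell markers. The 2 subunit panels share their low arrays; smooth muscle markers peak on Control male 1 (3.61) and fat cell markers on Western female 2 (4.38).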

How the data were processed

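Per the file headers, Feature Extraction 10.7.3.1 read 1 Cy3 array (design 026655) into each deposited file. Its processed signal is a linear intensity from which the software subtracted background before the files were deposited, per the file headers, with no normalization between arrays recorded. Control spots (1377) and outlier spots (94 to 216 per array) were left out, and no spot was saturated. The log2 signal minus the array's 75th percentile was used for probes above background on at least 2 arrays. Deposited flags, coded as other values per the file headers, gave these filters. Accessions were named through RefSeq (GRCm38.p6), with 26412 of 39429 probes matched, and the headers name build mm9, so no probe coordinates are given. The probe with the highest mean represented each gene (63 probes for the 40 members).

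Means of the 4 groups were fitted by limma 3.58.1 (R 4.3.3; data.table package version 1.17.8) over 8 arrays, with 4 residual and 2.01 prior degrees of freedom. Benjamini-Hochberg adjustment ran over 21319 genes, and errors of differences are SE. The fit was run on simulated data with independent noise in each gene and diet shifts larger than those of the members. That run does not bear on small differences or on shifts shared by many genes on an array. The members, gene lists and markers were chosen with earlier results of these data known. Named genes had the smallest diet p in each complex and direction, the 3 smallest p in every other comparison, or were c subunits, Cox7a isoforms or Cycs. In other pathway lists the 2 smallest diet p were taken. The small number of arrays limits the precision. Alternatives covered background correction, scaling, filters, probe choice, blocks and arrays left out. Normexp used median signals, since the files used here hold no mean signal. Replicate numbers were not shown to pair arrays.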

Additional observations from a re-analysis of the deposited data

Results flagged for a closer look

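In 5 of 40 genes, against 1.07% of all genes, the diets separated in opposite directions in the 2 sexes, with both Western male arrays above both Control male arrays and both Western female arrays below both arrays labelled Control female. For Uqcr10, 1 of its 3 probes overlapped in females. The difference of the diet effects, females minus males in log2, was -0.38 for Uqcrc2, -0.53 for Uqcr10, -0.60 for Cox5b, -0.61 for Cox6b1 and -0.35 for Atp5g2. None passed the test of that difference (limma adjusted p = 1 for each), and with median scaling the median of all members turned to 0.13.

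Among 80 sets of 4 arrays, Dixon's test set 1 array apart. Sdha on the array labelled Control female 1 lay away from the other 3 control arrays by 0.951 of their whole range, above the 95% critical value. Chance sets apart an array in about 1 of 20 sets, or 4 of 80.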

How the results depend on the processing

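No member passed the adjusted threshold in any of the 19 alternatives with a test, in any comparison. Over all genes, with 0 calls in the main setting, median scaling gave 115 in females, 56 in males, 123 for diet, 216 for sex and 66 for the difference of the diet effects. It set the members' median at 0.39 for diet, 0.48 in females, 0.13 for the difference of the diet effects and -0.14 for sex, the shift of all genes given beside each result. With slide as a block the members' median was 0.002 in males and -0.15 for the difference of the diet effects. In females it was -0.40 within slide 3 and -0.005 within slide 1, against -0.22 and -0.04 over all genes. Within slide 1 it was -0.067 for the difference of the diet effects and 0.34 for sex. Without Control male 1 and Western female 2 it was 0.013 in females and -0.109 for the difference of the diet effects. The cause of these shifts was not tested.

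When 1 array at a time was left out, the members' median ranged from -0.394 to 0.013 in females, 0.06 to 0.33 in males, -0.10 to 0.09 for diet, 0.03 to 0.25 for sex and -0.57 to -0.15 for the difference of the diet effects. The count over all genes was 0 to 396 in females, 0 to 2 for the difference of the diet effects and 0 to 3 for sex. The 396 came without the array labelled Control female 1, and 2 came without Control female 2. With a replicate block the members' median was -0.18 in females, 0.21 in males and -0.02 for diet, and no member was called. Same-numbered arrays correlated at -0.12 to 0.35, so the numbers were not shown to pair the arrays. Of 510 medians of single complexes and medians relative to all genes in the alternatives, 54 moved by more than 1 SD. Array weights left every median as it was, since both arrays of a group received equal weight, and called no member. A value within slide 3 could not be given for males or for the difference of the diet effects, since that slide held no Western male. With 2 arrays a group, differences of the size seen here (SE near 0.18 to 0.36) were not detectable.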
